A study of Homo sapiens with 4 samples.

Results

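KIT-high cells of the breast cancer line HCC1143 were examined. A cell was counted as KIT-high when its barcode held at least 2 unique molecular identifiers (UMIs) of the KIT messenger RNA and at least 20000 UMIs in all. This rule found 209 cells among 3194 barcodes, of which 3086 reached 20000 UMIs. They were set against 2506 KIT-zero cells, which reached the same depth with 0 KIT UMIs. Another 371 cells with 1 KIT UMI lay just outside the threshold. HCC1143 is an established human line from a triple-negative breast carcinoma, a tumour that lacks oestrogen receptor, progesterone receptor and HER2 amplification. The cells were kept for 24 h or 72 h in 1 nM paclitaxel, which stabilises microtubules, or in DMSO as solvent control. Each of the 4 groups, the solvent or the drug for either time, was 1 droplet library of 526 to 1102 barcodes. No difference between conditions therefore has a replicate check.

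KIT is a receptor tyrosine kinase that binds stem cell factor, the product of KITLG. In the normal breast it marks progenitors of the secretory luminal lineage, from which basal-like carcinomas are thought to arise. Outside the breast it marks mast cells, melanocytes and blood stem cells. The gene lies on chromosome 4 at positions 54657918 to 54740715 of GRCh38, on the plus strand. The cells were chosen by their KIT UMIs and total UMIs, so both serve only to describe them.

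KIT-high cells were few in every library. They made up 57 of 1081 deep cells after 24 h in DMSO, or 5.27% (exact binomial 95% interval 4.02 to 6.78), and 74 of 751 after 24 h in paclitaxel, or 9.85% (7.82 to 12.2). After 72 h the order was the other way round, with 64 of 769 cells in DMSO, or 8.32% (6.47 to 10.5), and 14 of 485 in paclitaxel, or 2.89% (1.59 to 4.80). At each time the intervals of drug and solvent did not overlap. They cover counting error only. Because deeper cells meet the rule more easily, each deep cell was also thinned at random to 20000 UMIs. The share with 2 or more KIT UMIs was then 1.02% and 2.93% at 24 h and 2.08% and 0.412% at 72 h, in DMSO and paclitaxel respectively. The order of the 4 libraries was kept. The thinned intervals narrowly did not overlap at 24 h (0.509 to 1.81 and 1.84 to 4.40), with 11 and 22 cells. They did at 72 h (1.19 to 3.36 and 0.05 to 1.48), where 2 cells remained in paclitaxel. The thinning was a single random draw, and its intervals do not cover a change of draw. No cell type that lacks KIT was present to give a background share from free RNA.

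**Figure D1:**
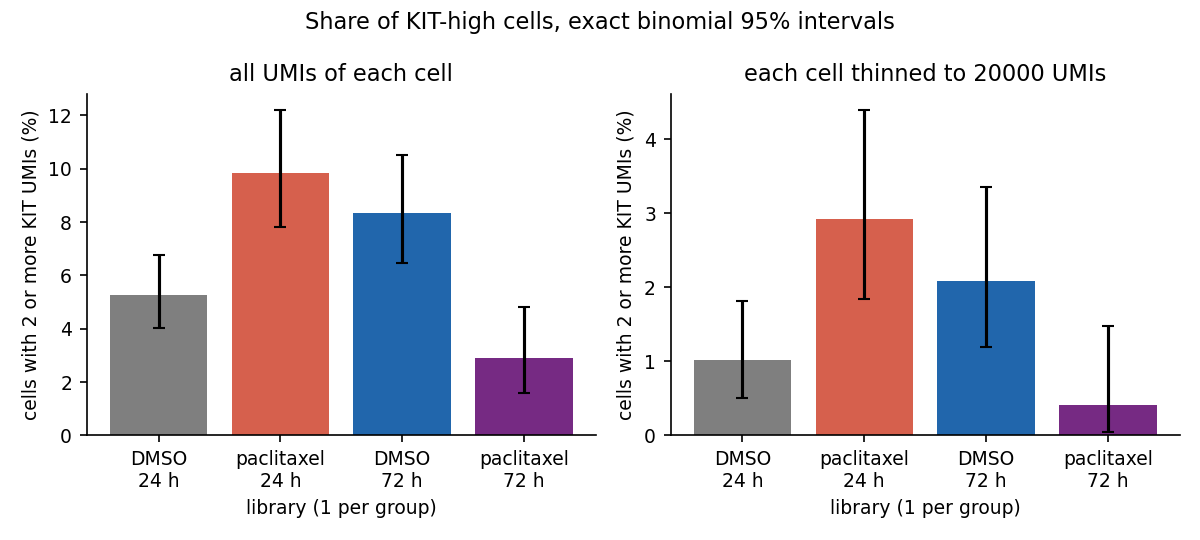
Percent of deep cells with 2 or more KIT UMIs in each library, from all UMIs (left) and after thinning each cell to 20000 UMIs (right); bars start at 0 and whiskers are exact binomial 95% intervals. The paclitaxel 24 h bar is the highest (9.85% and 2.93%) and the paclitaxel 72 h bar the lowest (2.89% and 0.412%) in both panels, which have different scales.

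The summed KIT level ran in parallel. It counts the same UMIs that define KIT-high cells, so it is no separate support for the shares. Over all barcodes it was 3.79 counts per 1000000 UMIs (CPM; exact Poisson 95% interval 3.35 to 4.27) in DMSO 24 h and 6.64 CPM (5.98 to 7.36) in paclitaxel 24 h. It was 6.24 CPM (5.56 to 6.97) in DMSO 72 h and 2.43 CPM (1.94 to 3.0) in paclitaxel 72 h. KIT-high cells held 55.8%, 71.7%, 64.6% and 52.4% of the KIT UMIs of deep cells in these libraries, in the same order. The richest cell had 7, 16, 11 and 8 KIT UMIs. In cells thinned to 20000 UMIs the variance of KIT over its mean was 1.24, 1.60, 1.48 and 1.11, where independent sampling at 1 common level gives a ratio near 1. In the paclitaxel 24 h library 32 of 1387 genes of like mean were as variable, and in the DMSO 72 h library 29 of 1317. In paclitaxel 72 h 450 of 963 were. The 5 genes whose level over the 4 libraries was most like that of KIT, by the summed squared difference of centred log2 CPM, were FOSB, KIAA1549L, C5, FBN3 and LINC01037.

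KIT-high cells were deeper than KIT-zero cells in every library. Their median total was 70519 UMIs against 59249 in DMSO 24 h and 70555.5 against 58207 in paclitaxel 24 h. It was 65303 against 54749.5 in DMSO 72 h and 97177 against 58845 in paclitaxel 72 h. The median share of mitochondrially encoded RNA was close in the classes, at 6.35 to 7.81% in KIT-high and 6.55 to 7.79% in KIT-zero cells. The median share of ribosomal protein RNA was higher in KIT-high cells of every library, at 27.4% against 26.9%, 39.3% against 32.2%, 43.5% against 40.2% and 30.3% against 28.0%. Of 7 barcodes found in more than 1 library, 0 were KIT-high. The doublet caller Scrublet marked 28 cells, 4 of them KIT-high and all 4 in DMSO 72 h.

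Most defining markers of the other cell types known for KIT were not listed in every library. A gene that is not listed was not measured as absent. It may be missing even if a few cells held it, so whether such cells were present was not tested by these genes. Of 9 mast cell genes, among them the tryptases TPSAB1 and TPSB2, carboxypeptidase CPA3 and the receptor chain MS4A2, 1 (the transcription factor GATA2) was listed in every library. The summed mast cell level was 0.506 to 2.06 CPM in KIT-high and 0.590 to 2.26 CPM in KIT-zero cells. Of 7 melanocyte genes, PMEL and MITF were listed in every library and the pigment enzymes TYR and TYRP1 in none, with a sum of 11.1 to 14.7 CPM in KIT-high and 8.31 to 15.0 CPM in KIT-zero cells. Most of it came from MITF, at 9.86 to 14 CPM in KIT-high cells. Of 11 blood and stromal genes 3 were listed in every library, ANO1, COL1A1 and VWF, with a sum of 20.1 to 42.5 CPM in KIT-high and 23.6 to 50.4 CPM in KIT-zero cells. Markers that define blood stem or endothelial cells, CD34 and PECAM1, were listed in none.

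Which genes set KIT-high cells apart was asked by summing the UMIs of each class per library. The sums were compared in edgeR's quasi-likelihood test with the library as a block, with KIT left out. Of 8191 genes that averaged 10 CPM or more, 439 were higher in KIT-high cells (5.36%) and 415 lower (5.07%) at a Benjamini-Hochberg adjusted p under 0.05, or 10.4% in either direction. These p-values measure how steady the difference between the classes was over the 4 libraries, 1 per condition. The counts leaned on 2 of them. Without paclitaxel 24 h 77 genes were higher and 23 lower, and without DMSO 72 h 170 and 120. In cells thinned to equal depth, with 11 to 22 KIT-high cells in each of 3 libraries, 108 genes were higher and 63 lower. Both classes were set anew there by the thinned KIT UMIs. KIT-zero cells then numbered 1010 in DMSO 24 h instead of 905, so some held KIT UMIs at full depth. The thinned fit thus changed the classes as well as the depth. Of the genes called, 42 of the higher ones averaged under 10 CPM in KIT-zero cells and 23 of the lower ones in KIT-high cells, so they entered the fit through the other class. Scaling by plain totals instead of TMM factors turned the split to 280 higher and 811 lower. The median log2 ratio of all genes then moved from -0.01 to -0.07.

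NPR3 led the 12 highest genes that averaged 25 CPM or more. It encodes the clearance receptor for natriuretic peptides. Its level in KIT-high and KIT-zero cells was 51.6 and 11.1 CPM in DMSO 24 h, 62.7 and 16.0 CPM in paclitaxel 24 h, 70.4 and 18.3 CPM in DMSO 72 h, and 56.4 and 19.0 CPM in paclitaxel 72 h. All 4 KIT-high values lay above all 4 KIT-zero values, a log2 difference of 2.02 (SE 0.10, 4 libraries, edgeR adjusted p = 1.29e-08). Detection was also read at an equal depth of 20000 UMIs, with the classes as first defined. NPR3 was detected in 50.9%, 54.1%, 62.5% and 50% of KIT-high cells and in 15.8%, 18.8%, 20.5% and 22.7% of KIT-zero cells. ALPL, the tissue-nonspecific alkaline phosphatase, had 23.8 and 7.75 CPM in DMSO 24 h, 60.4 and 14.2 CPM in paclitaxel 24 h, 41.1 and 13.9 CPM in DMSO 72 h, and 68.8 and 17.7 CPM in paclitaxel 72 h. Again no KIT-high value fell within the KIT-zero range (log2 difference 1.89, SE 0.12, edgeR adjusted p = 1.81e-07).

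The other 10 of the 12 highest genes rose by 0.86 to 1.35 on the log2 scale, with edgeR adjusted p at or below 0.000972. ITPR2, an inositol trisphosphate receptor of the endoplasmic reticulum, rose by 1.24. FAM150B, a secreted ligand of the receptor tyrosine kinase ALK, rose by 1.21, and SEPT4, a septin of the cytoskeleton, by 1.20. CX3CL1, the membrane-bound chemokine fractalkine, rose by 1.07, and GPC4, a heparan sulphate proteoglycan of the cell surface, by 1.06. ZNF703, a transcriptional repressor amplified in some luminal breast cancers, rose by 0.96, and CTGF, a secreted matricellular protein, by 0.86. The set also held NOTCH3 and JAG1. These genes were ranked on the paclitaxel 24 h and DMSO 72 h libraries, and an equal sign in all 4 libraries was part of the ranking, so neither is a finding. The minimum of 25 CPM was a mean over both classes, which the KIT-high cells raised. NPR3, ALPL, ITPR2, SEPT4, CX3CL1 and GPC4 averaged under 25 CPM in KIT-zero cells. They met the minimum only through KIT-high cells, so their place in the ranking is no finding either. After thinning, GPC4 was at an edgeR adjusted p of 0.0736.

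**Figure D2:**
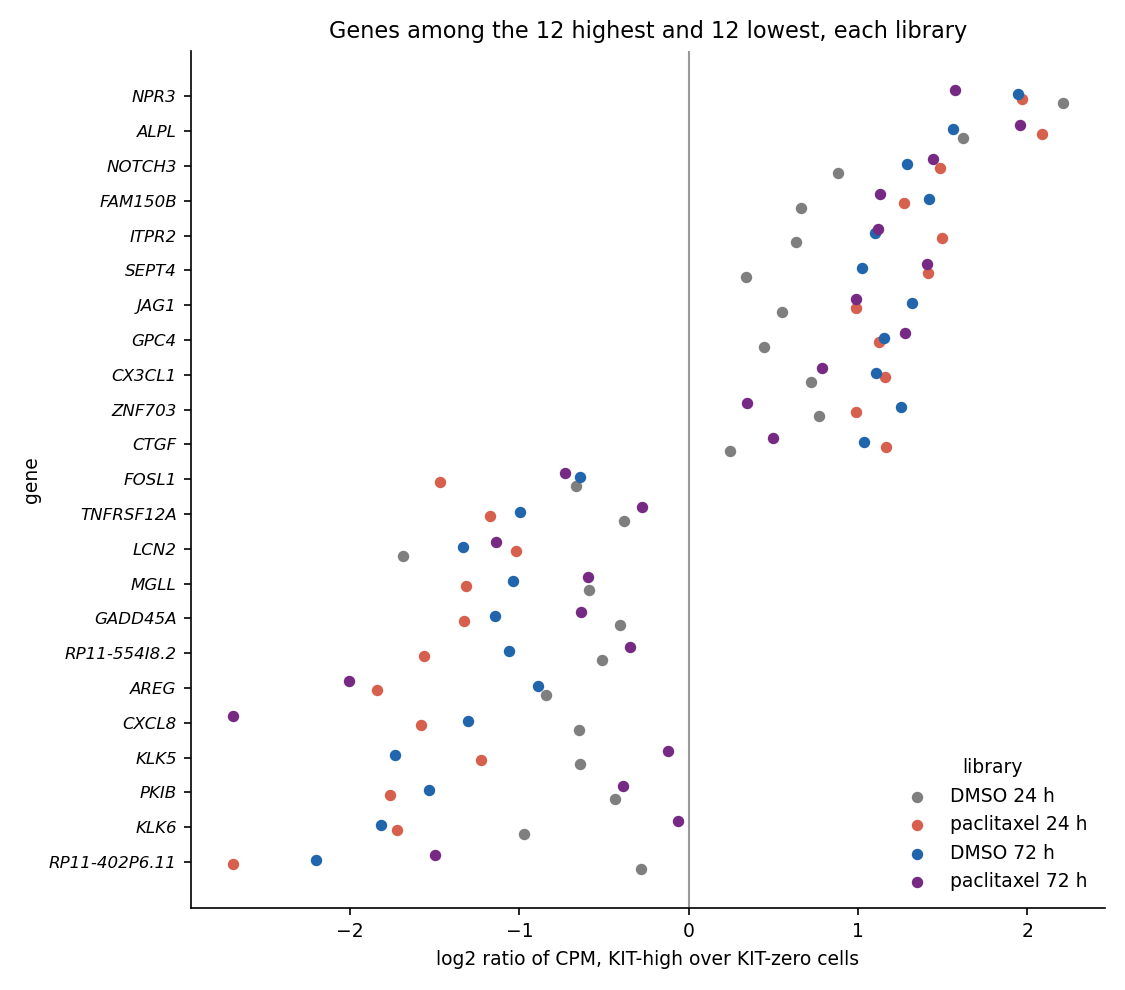
Log2 ratio of CPM in KIT-high over KIT-zero cells for the reported genes among the 12 highest and 12 lowest (rows), with 1 point per library; the vertical line marks equal levels. All points of the higher genes lie right of 0 and all points of the lower genes left of it, as the choice of genes required.

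The Notch receptor gene NOTCH3 and the ligand gene JAG1 were among the 12 highest. Notch receptors are cleaved after binding a Jagged or Delta ligand on a neighbouring cell, and the freed fragment switches on HES and HEY repressors. The receptor NOTCH3 had 328 and 178 CPM in KIT-high and KIT-zero cells of DMSO 24 h, 650 and 232 CPM in paclitaxel 24 h, 648 and 265 CPM in DMSO 72 h, and 560 and 206 CPM in paclitaxel 72 h. The classes did not overlap (log2 difference 1.35, SE 0.11, edgeR adjusted p = 2.89e-06). The log2 ratio within a library was 0.88 (0.80 to 0.96) in DMSO 24 h and 1.29 to 1.49 in the others. The ligand JAG1 had 95.3 and 65.0 CPM, 111 and 56.1 CPM, 97.0 and 38.9 CPM, and 134 and 67.3 CPM in the libraries in that order, a log2 difference of 1.03 (SE 0.11, edgeR adjusted p = 4.08e-05).

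Further genes of the pathway were looked up after NOTCH3 and JAG1 had been seen. The second Jagged ligand, JAG2, rose by 0.56 (edgeR adjusted p = 0.000972), the receptor NOTCH1 by 0.42 (0.0125) and the target HES4 by 0.61 (0.000258). The targets HEY2 and NRARP were under 10 CPM and entered only the fit without a filter. HEY2 had 3.19 and 0.876 CPM in DMSO 24 h, 8.93 and 1.56 CPM in paclitaxel 24 h, 9.40 and 1.39 CPM in DMSO 72 h, and 10.3 and 3.0 CPM in paclitaxel 72 h. It rose by 2.36 in that fit (edgeR adjusted p = 7.16e-08), and NRARP, a feedback inhibitor of Notch, rose by 1.27 (0.00069). Not every gene of the pathway passed the test. The log2 difference was 0.31 for the target HES1 (edgeR adjusted p = 0.0524), -0.11 for the receptor NOTCH2 (0.588) and 0.10 for the ligand DLL3 (0.48). The NOTCH1 call was lost without paclitaxel 24 h (edgeR adjusted p = 0.138) and without DMSO 72 h (0.0541), and HES1 passed without paclitaxel 72 h (0.00633). After thinning to equal depth the log2 differences were 0.32 for JAG2, 0.55 for NOTCH1 and 0.32 for HES4, and none of the 3 passed (0.451, 0.358 and 0.362), whereas HES1 did (0.54, 0.0111).

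Several other receptors and transcription factors, also chosen after their values were seen, were higher in KIT-high cells. FGFR1, a fibroblast growth factor receptor, had 9.33 and 4.79 CPM in DMSO 24 h, 19.9 and 4.44 CPM in paclitaxel 24 h, 16.1 and 4.02 CPM in DMSO 72 h, and 19.3 and 5.60 CPM in paclitaxel 72 h. The KIT-high values were all above the KIT-zero values. FGFR1, FZD1, TTYH1 and BCL11A averaged under 10 CPM in KIT-zero cells and passed the minimum only through KIT-high cells, so their values are from the fit without a filter. FGFR1 rose by 1.81 there (SE 0.18, edgeR adjusted p = 7.08e-08). FGFR2 rose by 0.70 (edgeR adjusted p = 0.00428, 0.0523 without DMSO 72 h and 0.702 after thinning), while FGFR4 differed by 0.14 (0.524). The Wnt receptor FZD1 rose by 1.68 (2.25e-07), while FZD3, FZD6 and FZD7 differed by 0.14, 0.16 and 0.35 with adjusted p of 0.534, 0.339 and 0.0727. FZD7 passed without DMSO 24 h (0.0281).

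TTYH1, a membrane protein of the tweety family, had 12 and 3.66 CPM in DMSO 24 h, 27.3 and 5.09 CPM in paclitaxel 24 h, 29.8 and 8.92 CPM in DMSO 72 h, and 26.2 and 6.48 CPM in paclitaxel 72 h. It was picked for its small p. Its log2 difference without a filter was 2.03 (edgeR adjusted p = 1.72e-10), with no overlap of the classes. The transcription factor BCL11A, linked to triple-negative breast cancer and mammary progenitors, rose by 1.11 without a filter (3.43e-05). In the filtered fit without paclitaxel 24 h, BCL11A was at an edgeR adjusted p of 0.0528. Its relative BCL11B rose by 0.84 (0.000191), and TRPS1, a zinc finger repressor of breast epithelium, by 0.58 (0.000553). The surface receptor AXL was lower, by a log2 difference of -0.68 (0.00478, and 0.101 without paclitaxel 24 h).

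**Figure D3:**
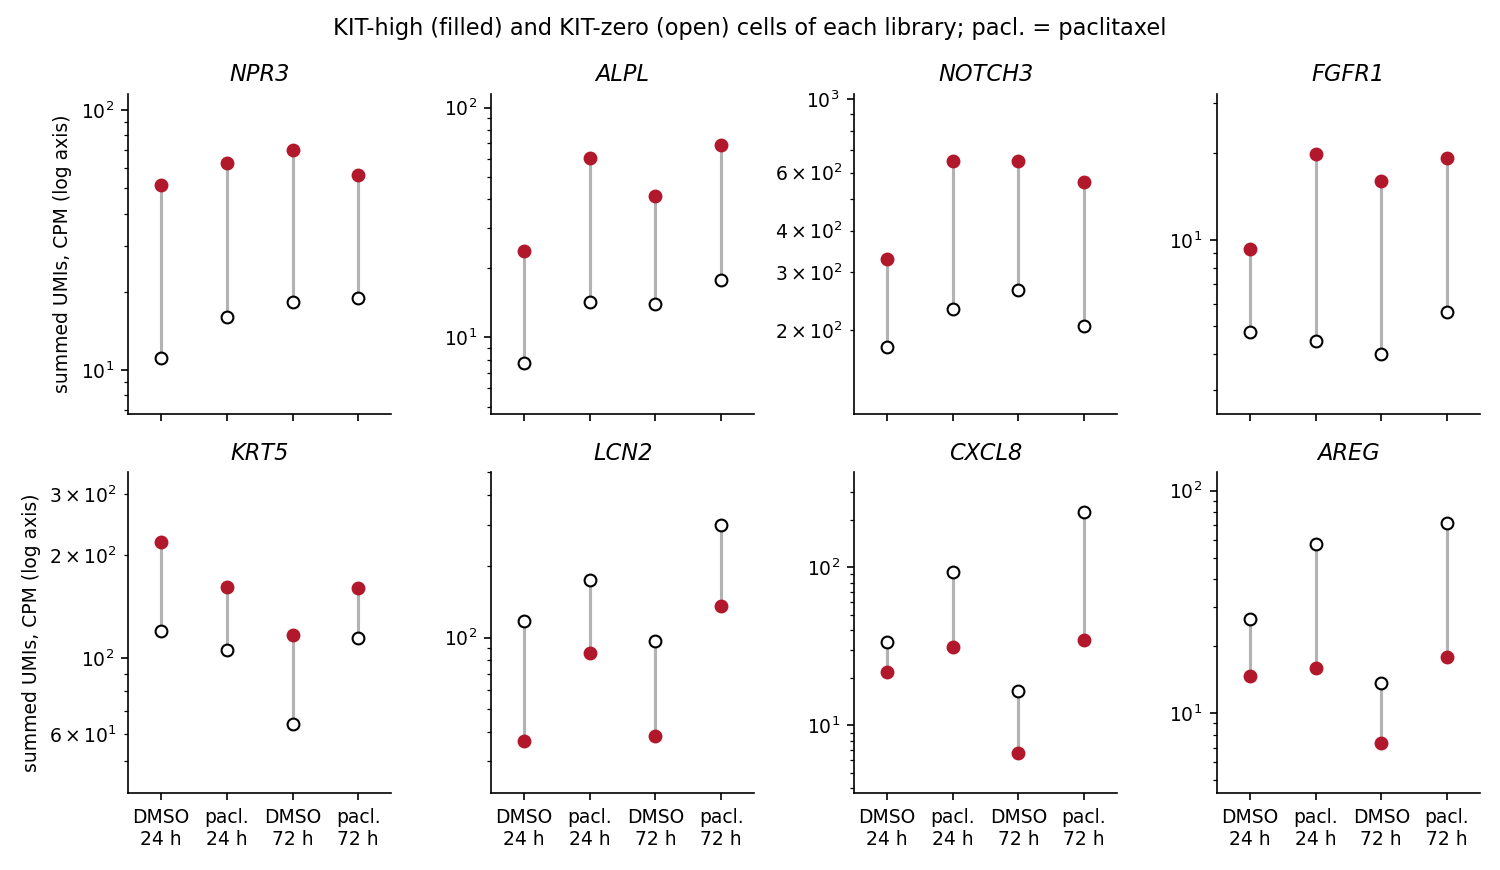
Level in CPM (log axis) of 8 genes in KIT-high cells (filled) and KIT-zero cells (open) of each library, joined by a line; each point is the summed UMIs of 1 class in 1 library. NPR3, ALPL, NOTCH3, FGFR1 and KRT5 are higher in KIT-high cells of all 4 libraries, and LCN2, CXCL8 and AREG are lower. For all but FGFR1 and KRT5 an equal sign in the 4 libraries was part of their choice.

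The lowest genes included secreted inflammatory and growth factors. CXCL8, a chemokine that attracts neutrophils, had 21.6 and 33.9 CPM in KIT-high and KIT-zero cells of DMSO 24 h, 31.2 and 93.5 CPM in paclitaxel 24 h, 6.65 and 16.5 CPM in DMSO 72 h, and 34.4 and 223 CPM in paclitaxel 72 h. As the ranking required, its level was lower in KIT-high cells of each library (log2 difference -1.49, SE 0.20, edgeR adjusted p = 0.000258). Ranges overlapped across libraries. At equal depth, with the classes as first defined, CXCL8 was detected in 22.8% of KIT-high and 21.5% of KIT-zero cells of DMSO 24 h. The shares were 18.9% and 32.6% in paclitaxel 24 h, 12.5% and 13.6% in DMSO 72 h, and 35.7% and 55.3% in paclitaxel 72 h. Detection was thus close between the classes in the DMSO libraries. LCN2, which encodes the iron-siderophore carrier lipocalin, had 36.6 and 118 CPM, 86.1 and 175 CPM, 38.3 and 96.4 CPM, and 136 and 300 CPM in the same order (log2 difference -1.20, SE 0.11, edgeR adjusted p = 1.21e-05). AREG, a ligand of the epidermal growth factor receptor, fell by 1.36 (9.42e-05). CXCL8 and AREG averaged under 25 CPM in KIT-high cells. They met the minimum of the ranking only through KIT-zero cells, so their place in it is no finding.

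The kallikrein serine proteases KLK6 and KLK5 fell by 1.08 (edgeR adjusted p = 0.00516) and 0.86 (0.00778), and PKIB, a protein kinase A inhibitor, by 0.96 (0.00484). KLK6 had 19.4 and 38.0 CPM, 11.5 and 37.9 CPM, 13.5 and 47.8 CPM, and 56.4 and 59.0 CPM, so that the classes were nearly level in paclitaxel 72 h. These 3 calls were lost without paclitaxel 24 h, at an edgeR adjusted p of 0.10 for KLK6, 0.119 for KLK5 and 0.0844 for PKIB. With DESeq2 they were lost as well, at 0.0674, 0.0931 and 0.0604. KLK5 was also lost with KIT-zero cells matched on depth (edgeR adjusted p = 0.108). MGLL, a lipase of monoglycerides and endocannabinoids, fell by 0.83 (0.000417), FOSL1, a subunit of the transcription factor AP-1, by 0.85 (0.000946) and GADD45A, a stress-induced growth regulator, by 0.78 (0.0015). At equal depth GADD45A was detected in 43.9% of KIT-high and 52.0% of KIT-zero cells of DMSO 24 h. The shares were 40.5% and 51.3% in paclitaxel 24 h and 23.4% and 35.4% in DMSO 72 h. In paclitaxel 72 h they went the other way, at 92.9% and 78.0%. TNFRSF12A, the receptor of the cytokine TWEAK, fell by 0.64 (edgeR adjusted p = 0.00627, and 0.105 without paclitaxel 24 h). The remaining 2 of the 12, RP11-402P6.11 and RP11-554I8.2, are clone-named genes that fell by 1.51 (0.00193) and 0.81 (0.00415). RP11-554I8.2 was at 0.0679 without paclitaxel 24 h and 0.267 after thinning, where FOSL1 was at 0.159.

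Levels of NPR3 and NOTCH3 were also read over the number of KIT UMIs, with no test. Both genes had been picked for their ratio between KIT-high and KIT-zero cells of paclitaxel 24 h and DMSO 72 h. Their difference between cells with 0 and with 2 or more KIT UMIs is therefore no finding. Only cells with 1 KIT UMI took no part in that choice. In paclitaxel 24 h cells with 0, 1, 2 and 3 or more KIT UMIs had 16.0, 32.6, 48.2 and 72.4 CPM of NPR3 and 232, 380, 562 and 709 CPM of NOTCH3. In DMSO 72 h the same classes had 18.3, 28.4, 59.1 and 82.9 CPM of NPR3 and 265, 421, 600 and 700 CPM of NOTCH3. For these genes, cells with 1 KIT UMI, just outside the rule, lay between KIT-zero cells and cells with 2, just inside it. The exception was NPR3 in paclitaxel 72 h, where the 39 cells with 1 KIT UMI had 11.5 CPM against 19.0 CPM in KIT-zero cells. Other genes, chosen in the same way, were less even. LCN2 was lower at each step in paclitaxel 24 h, at 175, 139, 92.9 and 81.6 CPM, but in no other library. It was at 118, 72.7, 32.1 and 43.4 CPM in DMSO 24 h, 96.4, 98.0, 46.8 and 28.9 CPM in DMSO 72 h, and 300, 222, 116 and 184 CPM in paclitaxel 72 h. CXCL8 had 93.5, 41.2, 60.4 and 11.8 CPM in paclitaxel 24 h, and AREG 13.6, 25.6, 9.63 and 4.82 CPM in DMSO 72 h. Cells with 1 KIT UMI mix cells of different KIT levels at this depth.

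**Figure D4:**
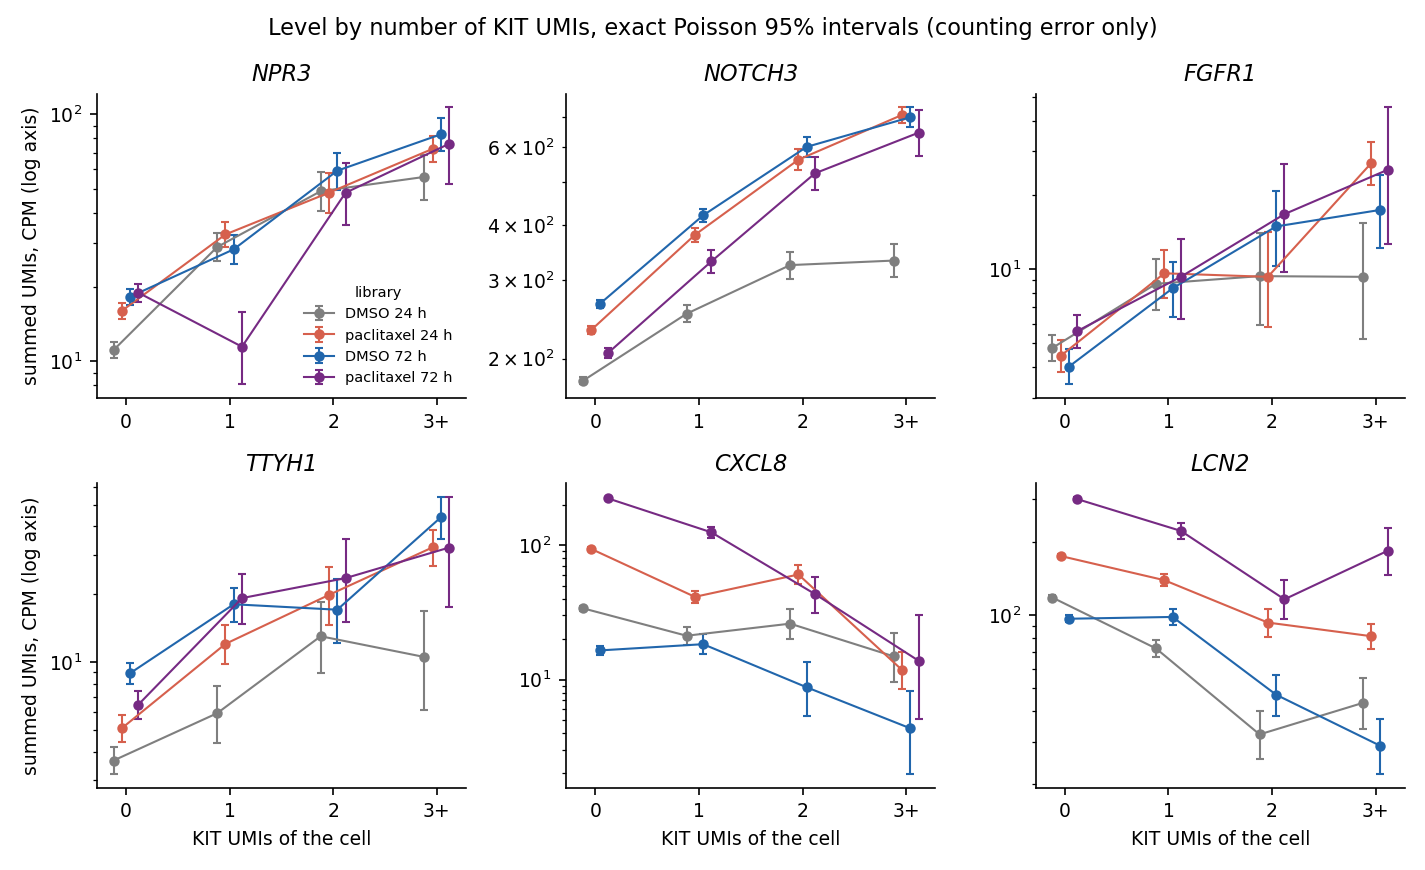
Level in CPM (log axis) of 6 genes in cells with 0, 1, 2 and 3 or more (3+) KIT UMIs, with 1 line per library and exact Poisson 95% intervals that cover counting error only. NOTCH3 goes up at each step in all 4 libraries (from 232 to 709 CPM in paclitaxel 24 h). LCN2 goes down at each step only in paclitaxel 24 h (from 175 to 81.6 CPM). All 6 genes were chosen by their difference between cells with 0 and with 2 or more KIT UMIs.

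Genes known from luminal progenitors did not move together. Of 22 luminal progenitor genes 13 were fitted, and 3 were higher, 3 lower and 7 not called, with a median log2 difference of -0.15 against -0.01 for all genes fitted. Over all genes fitted 5.36% were higher and 5.07% lower, the shares to set beside the counts of each list. MMP7, a matrix metalloprotease, had 227 and 112 CPM in DMSO 24 h, 553 and 358 CPM in paclitaxel 24 h, 294 and 217 CPM in DMSO 72 h, and 562 and 484 CPM in paclitaxel 72 h (log2 difference 0.65, edgeR adjusted p = 0.00121). GABRP, a subunit of a GABA receptor, rose by 0.62 (0.00201, but a difference of 0.20 and 0.782 after thinning), and KRT15, a keratin of epithelial progenitors, by 0.42 (0.0453). KRT15 was higher in KIT-high cells of 3 libraries and at 86.7 against 119 CPM in paclitaxel 72 h.

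The chemokine CXCL1 fell by 0.65 (edgeR adjusted p = 0.00862), the surface glycoprotein CD24 by 0.49 (0.0125) and the milk fat globule protein MFGE8 by 0.48 (0.0192). ALDH1A3, an aldehyde dehydrogenase used to mark progenitors, differed by -0.26 (0.212), by -0.48 without paclitaxel 72 h (0.00186) and by -0.78 after thinning (0.00185). The secreted inhibitor SLPI differed by -0.07 (0.601). ELF5, the factor that directs the secretory lineage, had 0.737 and 0.489 CPM, 1.35 and 1.06 CPM, 3.21 and 2.76 CPM, and 2.06 and 1.79 CPM, and PIGR, SOX10 and BBOX1 were listed in no library. After thinning, or with 3 or more KIT UMIs, the median of the list was 0.15 or 0.08 instead. Without paclitaxel 24 h 1 listed gene was higher and 0 lower. The cells are therefore named by the KIT rule here and not by a lineage.

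Keratins and lineage genes of the other mammary layers were likewise split. Of 16 fitted basal and myoepithelial genes 2 were higher, KRT5 and the insulin-like growth factor binding protein IGFBP5, and 2 lower, the oxytocin receptor OXTR and the laminin chain LAMA3, with a median of -0.14. KRT5, a keratin of basal cells that is also found in progenitors, had 218 and 120 CPM in DMSO 24 h, 161 and 105 CPM in paclitaxel 24 h, 117 and 64.3 CPM in DMSO 72 h, and 160 and 114 CPM in paclitaxel 72 h. It was the higher in KIT-high cells each time (log2 difference 0.78, SE 0.08, edgeR adjusted p = 3.46e-05). Its partner KRT14 differed by -0.27 (0.0748, and 0.0428 without DMSO 24 h). IGFBP5 went the other way in paclitaxel 72 h, at 19.3 against 31.1 CPM, and its call was lost without paclitaxel 24 h (0.139) and with DESeq2 (0.22).

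Of 10 fitted mature luminal genes 1 was higher, the mucin MUC1 (0.29, edgeR adjusted p = 0.0457), and 3 were lower, AREG, the transcription factor XBP1 (-0.39, 0.0184) and the keratin KRT18 (-0.37, 0.0324), with a median of -0.15. The oestrogen receptor ESR1 was at 0.372 CPM as a mean over the summed classes, and PGR was listed in no library. Of 8 fitted squamous genes the envelope protein CNFN was higher (0.36, 0.0172) and the calcium-binding protein S100A9 lower (-0.73, 0.00127). After thinning CNFN had the opposite sign (-0.26), and S100A9 was at 0.262. EPCAM, an epithelial adhesion molecule, was lower by a log2 difference of -0.29 (0.0338). Of the calls in these lists, those of MUC1, KRT18, XBP1, CNFN, EPCAM, OXTR and KRT15 were lost without either paclitaxel 24 h or DMSO 72 h, and those of LAMA3 and GABRP without paclitaxel 24 h. The edgeR adjusted p then lay between 0.0517 and 0.245. KRT15 and MUC1 were also lost without DMSO 24 h (0.178 and 0.162) and KRT18 without paclitaxel 72 h (0.0757). With KIT-zero cells matched on depth KRT18, EPCAM and MUC1 were lost too, at an edgeR adjusted p of 0.0706, 0.0841 and 0.112. Without DMSO 24 h 5 basal genes were lower. After thinning 1 basal gene was higher and 1 lower, 1 mature luminal gene was lower, and 0 squamous genes passed. IGFBP5 was at 0.33 (0.784) and EPCAM at -0.06 (0.92) there.

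Few genes of KIT signalling and its output were called, and in both directions. KIT passes its signal through adaptors such as GRB2 to the RAS and ERK cascade and to PI3 kinase. Of 23 fitted genes of that list 1 was higher, the feedback inhibitor SOCS3 (0.55, edgeR adjusted p = 0.0236), and 1 lower, GRB2 (-0.28, 0.0442), with a median of 0.07. Both calls were lost without paclitaxel 24 h (0.267 and 0.279) and without DMSO 72 h (0.0942 and 0.16), and GRB2 without DMSO 24 h (0.0574). After thinning 0 genes of the list passed. In the main fit the list was called no more often than all genes fitted, of which 5.36% were higher and 5.07% lower. The ligand gene KITLG was at 2.70 and 3.18 CPM, 2.19 and 2.96 CPM and 5.50 and 2.65 CPM in the first 3 libraries, and at 0 UMIs in KIT-high and 3.04 CPM in KIT-zero cells of paclitaxel 72 h. Of 13 fitted genes of ERK output the transcription factor MYC was higher (0.34, 0.0214), and FOSL1 and the membrane protein EMP1 (-0.51, 0.00681) were lower. The calls of MYC and EMP1 were lost without paclitaxel 24 h (0.22 and 0.109) and without DMSO 72 h (0.109 and 0.0592), and MYC after thinning (0.222).

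Inflammatory and stress genes were more often lower than higher in KIT-high cells. Of 15 fitted NF-kB and inflammatory genes 4 were lower, CXCL8, LCN2, CXCL1 and the acute phase protein SAA1 (-0.66, edgeR adjusted p = 0.00514), and 1 was higher, the ubiquitin ligase BIRC3 (0.28, 0.0388), with a median of -0.29. Of 21 fitted stress response genes 6 were lower and 0 higher, with a median of -0.21. At an unadjusted p under 0.05 edgeR had 9 lower and 1 higher, and DESeq2 called 6 lower and 0 higher. The 6 were GADD45A, the pro-apoptotic PMAIP1 (-0.69, 0.0136), the amino acid carrier SLC3A2 (-0.62, 0.00521), the phosphatase subunit PPP1R15A (-0.62, 0.00696), the mTORC1 inhibitor DDIT4 (-0.41, 0.0228) and XBP1. Without paclitaxel 24 h 2 of the inflammatory and 1 of the stress genes were lower. After thinning 4 of the inflammatory and 1 of the stress genes were.

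Antigen presentation genes were lower where they were called. Of 11 fitted MHC class I genes 3 were lower in edgeR, the immunoproteasome subunit PSMB9 (-0.66, edgeR adjusted p = 0.00963), the chaperone CALR (-0.33, 0.0264) and HLA-C (-0.29, 0.0449), and 0 were higher, both there and in DESeq2. At an unadjusted p under 0.05, 5 were lower and 0 higher. Without paclitaxel 24 h 0 passed, with PSMB9 at 0.0581. Without DMSO 72 h or paclitaxel 72 h, or after thinning, 1 was lower. With KIT-zero cells matched on depth 1 was lower, while PSMB9 and HLA-C were at an edgeR adjusted p of 0.0583 and 0.192. HLA genes share sequence with close copies, so reads could be split between them. Of 21 fitted interferon-stimulated genes 0 passed in edgeR or in DESeq2, with 2 higher and 2 lower at an unadjusted p under 0.05 in edgeR and a median of -0.09. BST2, an antiviral membrane protein, passed without DMSO 24 h (0.0455) or without paclitaxel 72 h (0.0217).

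All S phase genes that were called were higher in KIT-high cells. G2/M genes were called in both directions, near the shares over all genes fitted (5.36% higher and 5.07% lower). Of 38 fitted S phase genes 5 were higher, the replication factors CDC45 and DTL, the chromatin remodelers HELLS and ATAD2, and CDCA7, and 0 were lower, with a median of 0.22. DTL had the largest difference (0.62, edgeR adjusted p = 0.00963), followed by CDCA7 (0.55, 0.00898). At an unadjusted p under 0.05 edgeR had 15 higher and 0 lower, and DESeq2 called 3 higher and 0 lower. Of 52 fitted G2/M genes 4 were higher, TOP2A, TMPO, ANLN and LBR, and 3 lower, CDC20, CCNB2 and TUBB4B, with a median of -0.01. TOP2A, the topoisomerase of dividing cells, rose by 0.44 (0.0195) and CDC20, an activator of the anaphase-promoting complex, fell by 0.42 (0.035), whereas the proliferation marker MKI67 differed by 0.09 (0.518). Without paclitaxel 24 h 0 genes of either list passed. With KIT-zero cells matched on depth 6 S phase genes were higher, but 0 G2/M genes were higher and 1 lower. Without DMSO 72 h 2 S phase genes were higher, and 0 G2/M genes were higher and 3 lower. Without DMSO 24 h 9 S phase genes were higher. After thinning 2 S phase genes and 1 G2/M gene were higher and 0 lower.

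The ribosomal protein genes, whose total share was higher in KIT-high cells as given above, had a median of 0.23. Of 84 genes 7 were higher and 1 lower, beside 5.36% and 5.07% of all genes fitted, and 6 and 2 with scaling by plain totals. Without paclitaxel 24 h or without DMSO 72 h 0 passed, without paclitaxel 72 h 1 was higher, without DMSO 24 h 25 were higher, and after thinning 2 were. Many ribosomal protein genes have near-identical copies in the genome, so their single counts are uncertain.

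**Figure D5:**
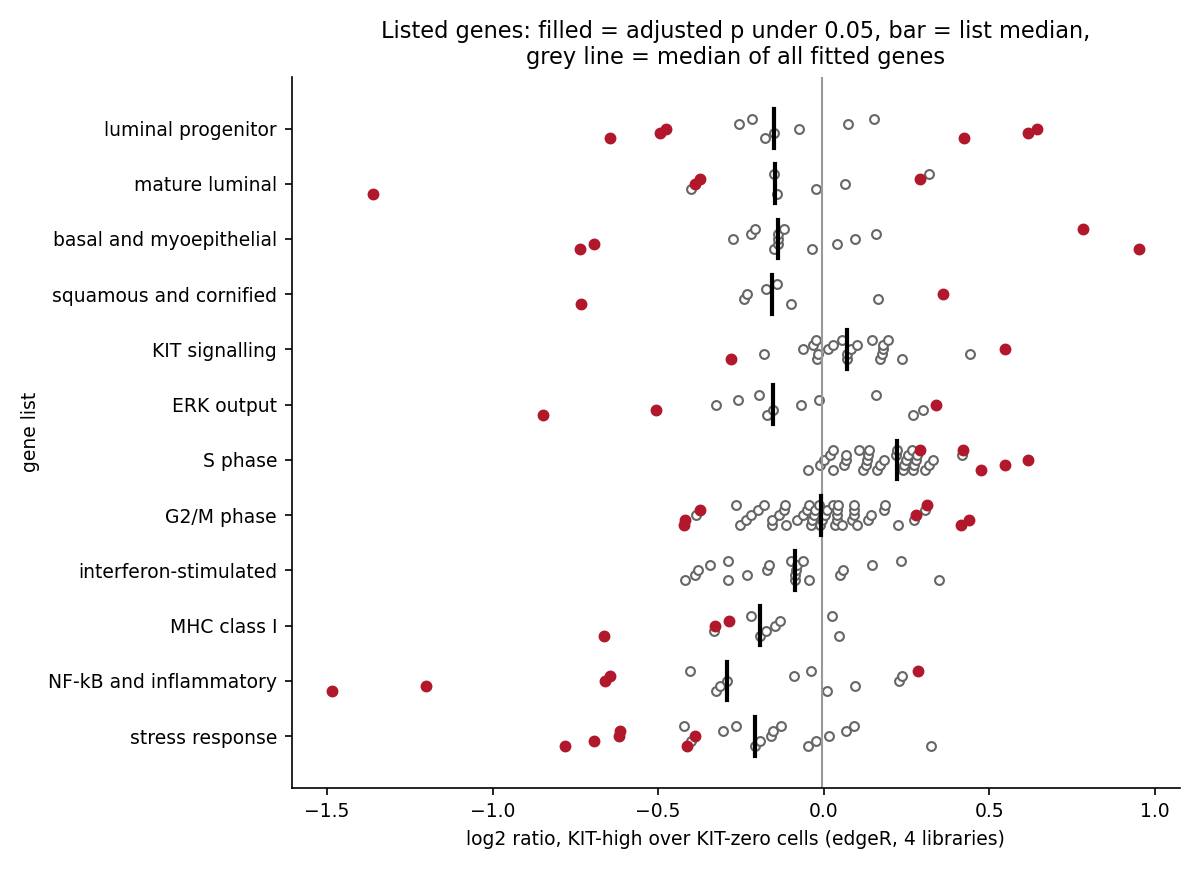
Log2 difference between KIT-high and KIT-zero cells for the fitted genes of 12 lists (1 point per gene), with filled points at an edgeR adjusted p under 0.05, black bars at list medians and a grey line at the median of all fitted genes (-0.01). Filled points lie on both sides of the line in the luminal progenitor, mature luminal and basal lists, and only left of it in the stress response list and the MHC class I list.

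Within single libraries, genes that averaged 25 CPM or more were counted when they differed by 1.5-fold with an exact Poisson interval that excluded a ratio of 1. KIT-high cells of paclitaxel 24 h had 70 higher genes (1.52% of 4599) and 303 lower (6.59%). Those of DMSO 72 h had 53 higher (1.23% of 4303) and 84 lower (1.95%). DMSO 24 h gave 42 (0.846%) and 20 (0.403%), and paclitaxel 72 h, with 14 KIT-high cells, 140 (2.83%) and 602 (12.2%). These ratios use plain totals, and the median log2 ratio of all genes was -0.01 and -0.06 in the DMSO libraries and -0.12 in both paclitaxel libraries. When ribosomal protein and MT- genes were left out of the totals, paclitaxel 24 h gave 278 higher and 139 lower genes and DMSO 72 h 176 and 107, so the excess of lower genes turned round in both. Cells of 1 library are not replicates, and no test was made within a library.

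The response to paclitaxel was set side by side in the classes, as log2 ratios of CPM in drug over solvent with no test, since each value compares 1 library with 1 other. The median of all fitted genes was -0.22 in KIT-high and -0.11 in KIT-zero cells at 24 h, and 0.20 and 0.26 at 72 h. Interferon-stimulated genes had a median of 0.90 in KIT-high and 0.85 in KIT-zero cells at 24 h, and 1.65 and 1.66 at 72 h. IFI6, an interferon-induced mitochondrial protein, went from 46.4 to 193 CPM at 24 h and from 58.5 to 570 CPM at 72 h in KIT-high cells. In KIT-zero cells it went from 36.9 to 200 CPM and from 75.4 to 751 CPM. Values for stress response genes were further apart, at -0.34 in KIT-high and 0.19 in KIT-zero cells at 24 h, and 1.04 and 1.44 at 72 h.

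CXCL1 went from 122 to 84.0 CPM in KIT-high cells at 24 h, a log2 ratio of -0.53 (exact 95% interval -0.72 to -0.35), and from 125 to 203 CPM in KIT-zero cells, a ratio of 0.70 (0.66 to 0.75). At 72 h the 2 classes had ratios of 2.55 and 2.47. CXCL8 had a ratio of 2.37 (1.68 to 3.08) in KIT-high and 3.76 (3.64 to 3.88) in KIT-zero cells at 72 h. NPR3 had been chosen for an equal sign in all 4 libraries, so its higher level in KIT-high cells of both treatments is no finding. Its ratios in KIT-high cells were 0.28 (0.03 to 0.53) at 24 h and -0.32 (-0.69 to 0.04) at 72 h. KRT15 had ratios of -1.85 and -0.91 at 72 h in KIT-high and KIT-zero cells. The intervals cover counting error only, and whether the classes differed in their response was not tested.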

How the data were processed

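Single cells were captured on the 10x Chromium platform, per the labels' protocols. The deposited tables hold raw UMI counts per gene symbol and barcode, without normalization, per the file headers and values. The submitters' processing notes name Cell Ranger 2.0 and GRCh38. The selection of cells is not stated in the labels. The tables list 15636 genes in common, and a gene missing from a table is not a measured 0. Coordinates are from GENCODE 29.

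Members, lists and tests were chosen with earlier results of these data known. UMIs were summed per library and class (at least 10 cells) and tested with edgeR 4.0.16 (glmQLFTest, TMM, library as block, mean of at least 10 CPM, adjusted p under 0.05 by Benjamini-Hochberg). DESeq2 1.42.0 was an alternative. On simulated counts of 8191 genes the edgeR step found 94 of 100 genes changed 1.5-fold and 100 of 100 changed 2-fold, with 5 false calls. Every simulated gene had the same dispersion, the median of the data, and changes were balanced in direction. The simulation therefore does not show how the step does on genes that vary more, or with unbalanced changes. Genes named are the 12 highest and 12 lowest by mean log2 ratio in paclitaxel 24 h and DMSO 72 h at 25 CPM or more, with an equal sign in all 4 libraries and without KIT, MT- and ribosomal protein genes, plus up to 4 per list (15 lists), a list of markers, and genes marked as chosen after their values were seen. A gene that the rule names is not reported here. Other alternatives were no count filter, thinning to 20000 UMIs, KIT-zero cells matched on depth (3 per member), 3 or more or 1 or more KIT UMIs, 30000 UMIs, a cell filter (under 20% MT- UMIs, at least 500 genes, no Scrublet call), cells without MKI67 or TOP2A UMIs, each library left out, and, added after seeing the data, no TMM factors.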

Additional observations from a re-analysis of the deposited data

How the results depend on the processing

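The share of KIT-high cells depends on the KIT minimum. At 24 h in DMSO and paclitaxel, then at 72 h in both, it was 1.02%, 2.93%, 2.08% and 0.412% after thinning, 2.04%, 5.86%, 3.64% and 0.825% with 3 or more KIT UMIs, and 16.3%, 23.7%, 22.5% and 10.9% with 1 or more. The order of the libraries was the same under all 3. Genes higher and lower over the libraries numbered 439 and 415, and 108 and 63 after thinning (3 libraries), 286 and 225 with KIT-zero cells matched on depth, 617 and 682 without a filter on counts, 280 and 811 without TMM factors (chosen after seeing the data), and 77 to 529 and 23 to 546 with 1 library left out. In paclitaxel 24 h, higher genes numbered 161 after thinning, 136 with 3 or more KIT UMIs and 278 with totals without ribosomal and MT- genes, and lower genes 609 and 139 in the last 2. In DMSO 72 h, higher genes numbered 170 after thinning, 142 without cells that held MKI67 or TOP2A, 95 with 3 or more KIT UMIs and 176 with the reduced totals, and lower genes 303, 311 and 220 in the first 3. The luminal progenitor median was 0.15 after thinning and 0.083 with 3 or more KIT UMIs. CNFN turned from 0.36 to -0.26 after thinning. Of 70 named genes that passed, 30 also passed without paclitaxel 24 h, 40 after thinning, 50 without DMSO 72 h and 60 or more in each other fit. Of the 24 highest and lowest, 19 to 24 passed in each fit. The cause of these changes was not tested. Without cells that held MKI67 or TOP2A 1 library kept at least 10 members, so edgeR was not run. Thinning and 3 or more KIT UMIs left under 10 in paclitaxel 72 h, which was not fitted. Gene counts after thinning used classes set anew by the thinned KIT UMIs. Every fit compared the classes within libraries, with the library as a block. The labels give no replicate numbers that would pair the libraries further. Depth limits KIT calls: a cell of 20000 UMIs holds on average 0.0515 to 0.164 KIT UMIs.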
